A study of Mus musculus with 6 samples.

Results

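The comparison set 1 library of induced myogenic progenitor cells (iMPC) that were positive for a nuclear green fluorescent reporter of Pax7 against 1 library of mouse embryonic fibroblasts (MEF), 2 of the 6 libraries of the series. It asks which genes distinguish fibroblast-derived cells with a muscle progenitor reporter from fibroblasts. All 17116 genes that passed the expression filter were compared. A gene was described as higher or lower where it met a limit of level and a limit of size. It had to reach at least 5 CPM (read counts scaled to a common library size) in the higher library and differ by at least 4-fold. The 4-fold limit was set on log2 differences with a small count added to both libraries (prior count 2), which shrinks ratios of low counts. A gene slightly over 4-fold by plain CPM could therefore miss the rule. With 1 library a group there was no replicate check and no test: the rule is one of size, and no p-value is given.

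The series is poly(A)-selected RNA sequencing of mouse cells, and the 4 other libraries, used here for levels only, were Pax7 reporter-negative iMPC (1), activated satellite cells (ASC, 1) and quiescent satellite cells (QSC, 1 each from mouse 1 and mouse 3). Per the labels' protocols, iMPC were made from embryonic or tail-tip fibroblasts with doxycycline at 2 µg/ml and basic FGF at 10 ng/ml, and expanded cultures were grown without doxycycline with 3 added agents: forskolin (5 µM), an activator of adenylyl cyclase, RepSox (5 µM), a blocker of TGF-beta receptor signalling, and an inhibitor of GSK3 (3 µM), a kinase that restrains the Wnt pathway. Strain, animal age, the doxycycline-driven factor, the fibroblast type behind the sorted cultures, and whether they were a clone or a bulk culture are not stated for these samples. The same protocol text stands beside the MEF library without saying in which medium those cells grew, so cell identity and culture medium cannot be told apart in any difference below.

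The libraries held 26351821 counts in Pax7-positive iMPC and 23273130 counts in MEF, and the others between 20859611 and 29279686. Pax7, the paired-box factor of satellite cells and the gene behind the sort, had 37.8 CPM in Pax7-positive iMPC and 0 counts in MEF, and 6.25 CPM in the Pax7-negative fraction. This checks the sort label and is not a result. Xist, the transcript of the inactive X chromosome, had 39.1 CPM in Pax7-positive iMPC and 41.9 CPM in MEF, and the Y-linked Ddx3y had 0 counts in Pax7-positive iMPC and 3 counts in MEF, so both libraries had a female-type pattern.

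Skeletal muscle is built in steps. Pax3 and Pax7 mark progenitors, the myogenic regulatory factors Myf5 and Myod1 commit them, and Myog drives withdrawal from the cell cycle, fusion and the genes of the contractile apparatus. Fibroblasts are defined instead by what they secrete, chiefly fibrillar collagen, proteoglycans and fibronectin, and in culture many take on actin bundles and TGF-beta-responsive contractile genes of the smooth muscle kind.

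Of the 17116 genes, 554 were higher in Pax7-positive iMPC (3.24%) and 971 were lower (5.67%), so that 8.91% of genes passed the rule in either direction. These shares are the background for the list counts below, as is the median log2 difference over all genes kept, 0.00 with 320 genes that had no count in either library and -0.02 without them; list medians are on the same scale. The higher genes took 8.05% of all counts in Pax7-positive iMPC and 0.685% in MEF, and the lower genes took 1.56% in Pax7-positive iMPC and 14.6% in MEF. Among the higher genes 216 lay under 1 CPM in MEF, 20 of them with no count, and 169 were already at 5 CPM or more there. Among the lower genes 272 lay under 1 CPM in Pax7-positive iMPC, 28 of them with no count, and 342 kept 5 CPM or more. On the log2 differences with the prior count, 160 higher and 171 lower genes were at least 32-fold apart. In a bulk library, fewer cells of a type and less RNA per cell cannot be told apart, and this applies to every value here.

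**Figure D1:**
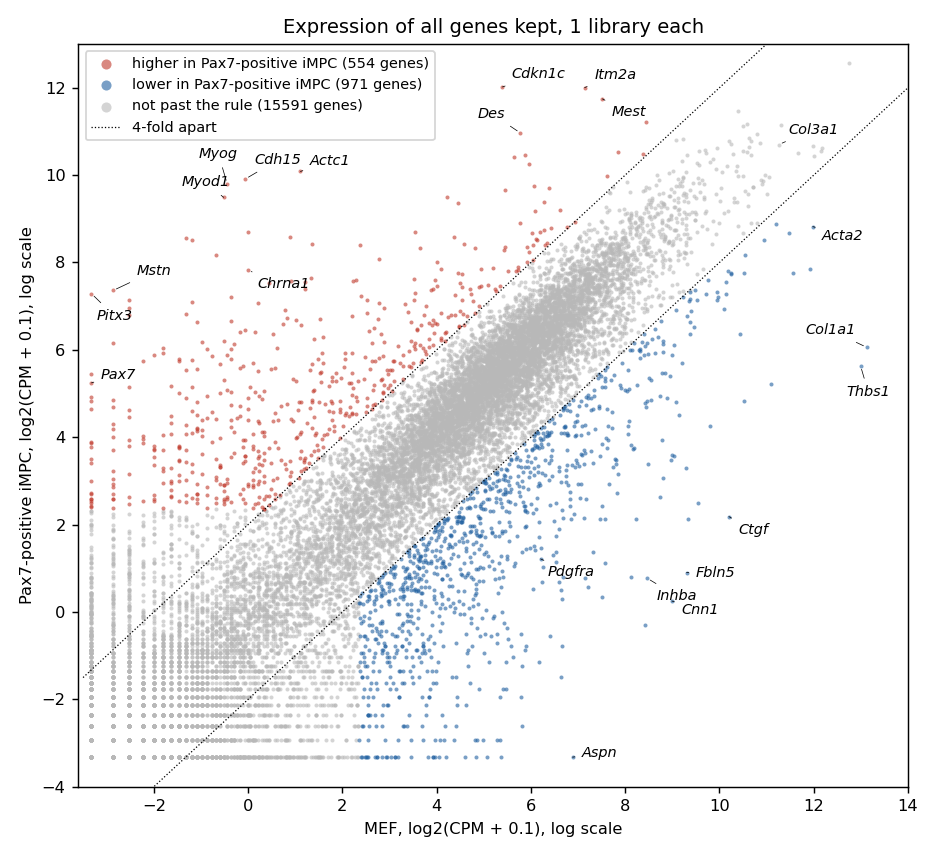
Expression of the 17116 genes kept in Pax7-positive iMPC (vertical axis) and in MEF (horizontal axis), both as log2(CPM + 0.1), 1 point per gene. The 554 higher genes lie at or above the upper dotted 4-fold line and the 971 lower genes at or below the lower one. Myod1, Myog, Cdh15 and Actc1 lie far above the upper line, and Col1a1, Thbs1, Cnn1 and Aspn far below the lower one.

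The 12 largest differences in favour of iMPC were Pitx3, Mstn, Myog, Myod1, Cdh15, Fgfr4, Vgll2, Col26a1, Chrnd, Chrng, Frmpd1 and Dbx1. The homeodomain factor Pitx3 had 156 CPM in Pax7-positive iMPC and no count in MEF, at least 1390-fold higher; here and below such a bound sets the missing library at 3 counts. Mstn encodes myostatin, the secreted inhibitor of muscle growth, and had 164 CPM in Pax7-positive iMPC and 0.0374 CPM, a single count, in MEF. Most of these genes belong to muscle, among them M-cadherin (Cdh15), the TEAD cofactor Vgll2 and the acetylcholine receptor subunits Chrnd and Chrng. Dbx1, a homeodomain factor best known from spinal cord progenitors, had 43.4 CPM in Pax7-positive iMPC and no count in MEF, at least 387-fold higher. The collagen chain Col26a1 had 363 CPM in Pax7-positive iMPC and 0.336 CPM in MEF.

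At the other end the largest differences included Aspn, Gjb2, Cnn1, Smoc2, Fhdc1, Il1rn, Lhx9, Tnn, Fbln5, Mmp13 and Gm2115. Asporin (Aspn), a small leucine-rich proteoglycan, had no count in Pax7-positive iMPC and 118 CPM in MEF, at least 1224-fold lower. Connexin 26 (Gjb2), a gap junction protein, likewise had no count in Pax7-positive iMPC and 41.1 CPM in MEF, at least 426-fold lower. Calponin 1 (Cnn1), an actin-binding protein of smooth muscle, had 1.09 CPM in Pax7-positive iMPC and 509 CPM in MEF. Fibulin 5 (Fbln5), which organises elastic fibres, had 1.77 CPM in Pax7-positive iMPC and 631 CPM in MEF. Secreted matrix proteins thus recur among the lost genes, as counted for whole lists below. Just inside the 4-fold limit were Car13 and Gm15501 (higher) and Fzd6 and Clip4 (lower), and just outside it Atp5g3, Igdcc4, Mpp1 and Myh9.

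Both myogenic factors of commitment and differentiation were high in iMPC and nearly silent in MEF. Myod1 had 719 CPM in Pax7-positive iMPC and 0.598 CPM in MEF, 1202-fold higher (95% counting interval 740 to 2103; such intervals cover counting error only). Myog had 892 CPM in Pax7-positive iMPC and 0.635 CPM in MEF, 1404-fold higher (877 to 2411). Of the 4 family members 2 passed the rule. Myf5, the earliest of them, had 3.57 CPM in Pax7-positive iMPC and 0.0374 CPM in MEF and missed the rule on level, and Myf6, the factor of mature fibres, had 0.418 CPM in Pax7-positive iMPC and no count in MEF. The 4 genes together took 0.19% of counts in Pax7-positive iMPC and 0.000146% in MEF. Whether any of the Myod1 counts came from an introduced copy cannot be told from gene counts and was not tested.

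These levels can be set beside the satellite cell libraries. Myf5 stood at 3.57 CPM in Pax7-positive iMPC, against 28.5 CPM in ASC and 84.2 and 124 CPM in QSC of mice 1 and 3. Myog had 892 CPM in Pax7-positive iMPC, 1358 CPM in Pax7-negative iMPC, 2055 CPM in ASC, and 189 and 4.07 CPM in the QSC mice. The Pax7-positive fraction therefore carried the differentiation factor at a level between those of QSC and ASC, with Myf5 below both.

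Among 19 upstream regulators, 7 were higher and 1 was lower, with a median log2 difference of 0.84. The sort gene Pax7, whose level the sort fixed, is 1 of the 7. Eya2, a transcriptional cofactor that acts ahead of the myogenic factors, had 38.1 CPM in Pax7-positive iMPC and 2.84 CPM in MEF, 13.4-fold higher. Msc (musculin), a bHLH repressor of muscle progenitors, had 32.2 CPM in Pax7-positive iMPC and 0.262 CPM in MEF, 123-fold higher. The paralog of Pax7, Pax3, was at 0.0643 CPM (2 counts) in Pax7-positive iMPC and 0.187 CPM (5 counts) in MEF, while the QSC mice had 20.5 and 55.7 CPM. Mef2a, Mef2c and Mef2d, the MADS-box partners of the myogenic factors, were all within 2-fold between the libraries, with Mef2c at 15 CPM in Pax7-positive iMPC and 10.8 CPM in MEF. Six5 was the member that was lower, at 1.32 CPM in Pax7-positive iMPC and 8.37 CPM in MEF.

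Of 19 surface and identity genes of satellite cells 9 were higher and 1 was lower (median 1.40), and here too the sort gene Pax7 is counted among the higher ones. M-cadherin, which holds satellite cells to the fibre, had 962 CPM in Pax7-positive iMPC and 0.86 CPM in MEF, 1119-fold higher (746 to 1766). The FGF receptor Fgfr4 had 380 CPM in Pax7-positive iMPC and 0.299 CPM in MEF. The laminin receptor subunit Itga7 had 724 CPM in Pax7-positive iMPC and 18.5 CPM in MEF, and the tetraspanin Cd82 had 655 CPM in Pax7-positive iMPC and 21.8 CPM in MEF. Other sorting antigens did not separate the libraries: Vcam1 had 168 CPM in Pax7-positive iMPC and 148 CPM in MEF, and Sdc4 had 184 CPM in Pax7-positive iMPC and 191 CPM in MEF. Cd34 was lower, at 1.42 CPM in Pax7-positive iMPC and 20 CPM in MEF. Calcr, a receptor of quiescence, was at 0.257 CPM in Pax7-positive iMPC and 0.149 CPM in MEF.

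The acetylcholine receptor is the muscle side of the nerve-muscle synapse, and the promoters of its subunit genes are known to hold E-boxes (CANNTG), the motif that myogenic factors bind. Those of Chrna1 and Chrng are printed because both genes were among the strongly gained ones and each holds the CAGCTG form 2 times within the 250 bases before the annotated start; Actc1 and Myl9, described further on, are printed with them because each holds 1 CArG box, the serum response factor motif, although Actc1 was higher and Myl9 lower. Sequences are from RefSeq on GRCm38.p6, 5′ to 3′ on the gene's strand, with the motif in capitals. Chrna1 is at chr2:73580339-73580588 (minus strand), Chrng at chr1:87205561-87205810 (plus), Actc1 at chr2:114052876-114053125 (minus) and Myl9 at chr2:156775214-156775463 (plus).
Chrna1: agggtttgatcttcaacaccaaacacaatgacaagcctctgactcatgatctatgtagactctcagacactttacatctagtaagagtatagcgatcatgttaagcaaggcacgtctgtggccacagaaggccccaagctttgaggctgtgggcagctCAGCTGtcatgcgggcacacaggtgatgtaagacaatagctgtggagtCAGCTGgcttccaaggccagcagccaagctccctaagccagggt
Chrng: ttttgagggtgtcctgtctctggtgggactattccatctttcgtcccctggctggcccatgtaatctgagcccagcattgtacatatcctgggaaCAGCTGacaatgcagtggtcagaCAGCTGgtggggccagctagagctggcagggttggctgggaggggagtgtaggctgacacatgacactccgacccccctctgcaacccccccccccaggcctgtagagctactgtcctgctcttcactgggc
Actc1: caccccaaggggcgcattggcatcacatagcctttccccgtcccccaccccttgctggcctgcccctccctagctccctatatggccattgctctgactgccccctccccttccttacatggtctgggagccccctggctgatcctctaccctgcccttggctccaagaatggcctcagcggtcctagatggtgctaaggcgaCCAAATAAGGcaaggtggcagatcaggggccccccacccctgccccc
Myl9: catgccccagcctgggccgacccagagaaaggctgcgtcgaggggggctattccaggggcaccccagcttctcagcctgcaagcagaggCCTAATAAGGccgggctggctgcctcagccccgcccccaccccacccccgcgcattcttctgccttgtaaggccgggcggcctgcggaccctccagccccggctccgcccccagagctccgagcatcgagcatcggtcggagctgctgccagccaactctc
CAGCTG, which reads the same on both strands, was found in a promoter window of this length for 14.7% of 27025 genes. The CArG box, searched on both strands, was found for 1.62%. A gene with several windows was counted if any of them held the motif. The first CAGCTG of Chrna1 began 92 bases before the start and the next 44 bases before it, those of Chrng 155 and 132 bases, and the CArG boxes of Actc1 and Myl9 47 and 161 bases. A match is a description of letters and not of binding. Only 367 of the 554 higher and 723 of the 971 lower genes could be matched to the promoter table, under 80%, so no share is given for them.

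The excitation-contraction coupling and synapse list had the highest median of the muscle structure lists, 4.44 on the log2 scale, with 15 of 26 genes higher and 0 lower. Chrna1 had 226 CPM in Pax7-positive iMPC and 0.897 CPM in MEF, 252-fold higher (169 to 393). The fetal subunit Chrng had 111 CPM in Pax7-positive iMPC and 0.0747 CPM in MEF. Genes that cluster the receptor were higher with it. The kinase gene Musk had 24.5 CPM in Pax7-positive iMPC and 0.0747 CPM in MEF, its adaptor Dok7 had 53.7 CPM in Pax7-positive iMPC and 0.112 CPM in MEF, and the scaffold Rapsn had 35.3 CPM in Pax7-positive iMPC and 0.336 CPM in MEF. The calcium pump of fast fibres, Atp2a1, had 136 CPM in Pax7-positive iMPC and 0.336 CPM in MEF, whereas the dihydropyridine receptor subunit Cacna1s, at 1.74 CPM in Pax7-positive iMPC and 0.0747 CPM in MEF, did not reach the level the rule asks for. The list summed to 1053 CPM in Pax7-positive iMPC and 120 CPM in MEF, and to 10007 CPM in ASC.

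Contractile genes passed the rule in part. In the thin filament list 10 of 17 genes were higher and 2 lower (median 3.35), and in the thick filament list 7 of 19 were higher and 0 lower (median 2.78). Cardiac alpha-actin (Actc1), the actin of embryonic skeletal muscle, was the most abundant, at 1084 CPM in Pax7-positive iMPC and 2.06 CPM in MEF, 527-fold higher (405 to 700). Slow troponin T (Tnnt1) had 113 CPM in Pax7-positive iMPC and 0.299 CPM in MEF. Embryonic myosin heavy chain (Myh3) had 47.7 CPM in Pax7-positive iMPC and 0.785 CPM in MEF, 60.8-fold higher (39.6 to 98.5). Adult skeletal actin (Acta1) did not pass, at 60.2 CPM in Pax7-positive iMPC and 41.7 CPM in MEF. All 7 thick filament genes that were higher, Myh3, Myh8, Myl1, Myl4, Mylpf, Mybpc1 and Mybph, were in the promoter table, and Myl1, Mylpf, Mybpc1 and Mybph held CAGCTG.

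The thick filament list summed to 169 CPM in Pax7-positive iMPC and 25.7 CPM in MEF, with 2088 CPM in Pax7-negative iMPC and 18172 CPM in ASC. Titin (Ttn), the molecular spring of the sarcomere, followed the same order, at 33.7 CPM in Pax7-positive iMPC, 156 CPM in Pax7-negative iMPC, 786 CPM in ASC and 0.635 CPM in MEF. Both lower thin filament genes were tropomyosins used outside skeletal muscle too. Tpm1 had 410 CPM in Pax7-positive iMPC and 2862 CPM in MEF, and Tpm3 had 160 CPM in Pax7-positive iMPC and 661 CPM in MEF. Through them the thin filament list summed to less in Pax7-positive iMPC (2478 CPM) than in MEF (4293 CPM), opposite to its median.

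Z-disc and assembly genes gave 8 higher and 3 lower of 29 (median 2.58). Desmin (Des), the muscle intermediate filament, had 2000 CPM in Pax7-positive iMPC and 54.6 CPM in MEF, 36.7-fold higher. Alpha-actinin 3 (Actn3), an actin cross-linker of fast fibres, had 344 CPM in Pax7-positive iMPC and 2.47 CPM in MEF. Klhl40, a stabiliser of thin filaments, had 13.5 CPM in Pax7-positive iMPC and no count in MEF, at least 121-fold higher. The chaperone Cryab and the LIM protein Fhl1 were lower, at 19 and 110 CPM in Pax7-positive iMPC and 198 and 639 CPM in MEF. Myoglobin (Mb), the oxygen store of muscle fibres, had 0.29 CPM in Pax7-positive iMPC and 0.0747 CPM in MEF, and muscle creatine kinase (Ckm) had 0.676 CPM in Pax7-positive iMPC and 0.0747 CPM in MEF. Both were under the level the rule asks for. In the energy enzyme list, to which they belong, 2 of 14 genes were higher, 2 were lower and the median was 1.70 (1.39 with genes missing from a library set at their bound). Muscle glycogen phosphorylase (Pygm) was the largest of its gains, at 57.7 CPM in Pax7-positive iMPC and 0.486 CPM in MEF. In the dystrophin complex 2 of 13 were higher and 1 lower (median 0.72), led by alpha-sarcoglycan (Sgca) at 35.2 CPM in Pax7-positive iMPC and 0.0747 CPM in MEF.

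Of 18 genes that act in myoblast fusion 4 were higher and 2 lower, and the median was -0.14. The 2 fusogens were both higher: Tmem8c (myomaker) had 61 CPM in Pax7-positive iMPC and 0.187 CPM in MEF, 326-fold higher, and Gm7325 (myomixer) had 14.7 CPM in Pax7-positive iMPC and no count in MEF, at least 131-fold higher. Tmem8c had 253 CPM in Pax7-negative iMPC and 1120 CPM in ASC. Cdh15 and its partner Cdon, a cell surface receptor of myoblasts, were the other higher members, Cdon at 73.8 CPM in Pax7-positive iMPC and 10.9 CPM in MEF. Dysf and Dock5 were lower. Boc, a relative of Cdon, did not pass, at 33.2 CPM in Pax7-positive iMPC and 40 CPM in MEF.

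**Figure D2:**
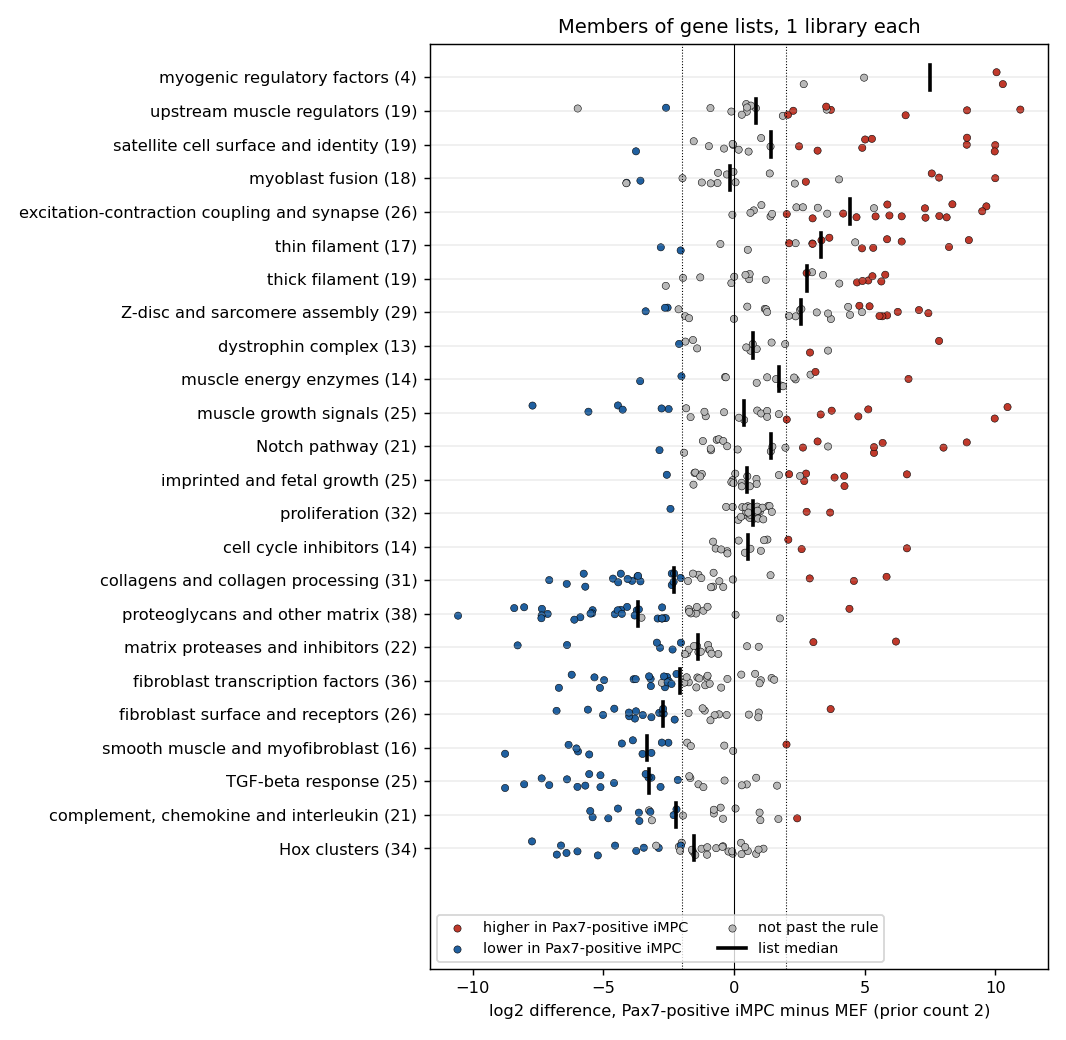
Log2 differences, Pax7-positive iMPC minus MEF, for the measured members of 24 gene lists (list size in brackets), 1 point per gene, with the list median as a black bar and the 4-fold limits dotted. Muscle lists reach to the right, with the excitation-contraction coupling list at a median of 4.44, and matrix, smooth muscle and TGF-beta lists lie to the left, with proteoglycans at -3.68.

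Growth signals turned over in both directions, 7 of 25 being higher and 6 lower (median 0.39). Myostatin was gained, as given above, while its secreted antagonist follistatin (Fst) had 10.3 CPM in Pax7-positive iMPC and 225 CPM in MEF, 21.9-fold lower. Activin A (Inhba), a ligand that shares receptors with myostatin, had 1.61 CPM in Pax7-positive iMPC and 353 CPM in MEF, 219-fold lower. FGF receptors differed in both directions too: Fgfr4 was gained and Fgfr2 was lower, at 1.51 CPM in Pax7-positive iMPC and 75.5 CPM in MEF. Fgfr1 and Fgfr3 did not pass, Fgfr1 being at 79.8 CPM in Pax7-positive iMPC and 168 CPM in MEF. Among IGF-binding proteins, Igfbp5 had 1361 CPM in Pax7-positive iMPC and 50 CPM in MEF, and Igfbp3 had 840 CPM in Pax7-positive iMPC and 83.8 CPM in MEF. Igfbp4 and Igfbp2 did not pass, at 335 and 56 CPM in Pax7-positive iMPC and 180 and 178 CPM in MEF. Igf2 itself, at 1780 CPM in Pax7-positive iMPC and 540 CPM in MEF, stayed inside the 4-fold limit.

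Notch signalling holds satellite cells in the progenitor state, and 7 of 21 of its genes were higher and 1 was lower. The list's median was 1.41, and 0.20 when genes missing from a library were set at their bound. The ligand gene Dll1 had 58.8 CPM in Pax7-positive iMPC and 0.149 CPM in MEF, 393-fold higher, and Jag2 had 46 CPM in Pax7-positive iMPC and 1.05 CPM in MEF. Receptor gene Notch3 had 212 CPM in Pax7-positive iMPC and 23 CPM in MEF. Of the target genes, Heyl had 289 CPM in Pax7-positive iMPC and 0.523 CPM in MEF, 552-fold higher, Hey1 had 103 CPM in Pax7-positive iMPC and 1.91 CPM in MEF, and Nrarp had 13.8 CPM in Pax7-positive iMPC and 0.262 CPM in MEF. Hes1, a general Notch target, was alike in both, at 69.4 CPM in Pax7-positive iMPC and 62.9 CPM in MEF.

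**Figure D3:**
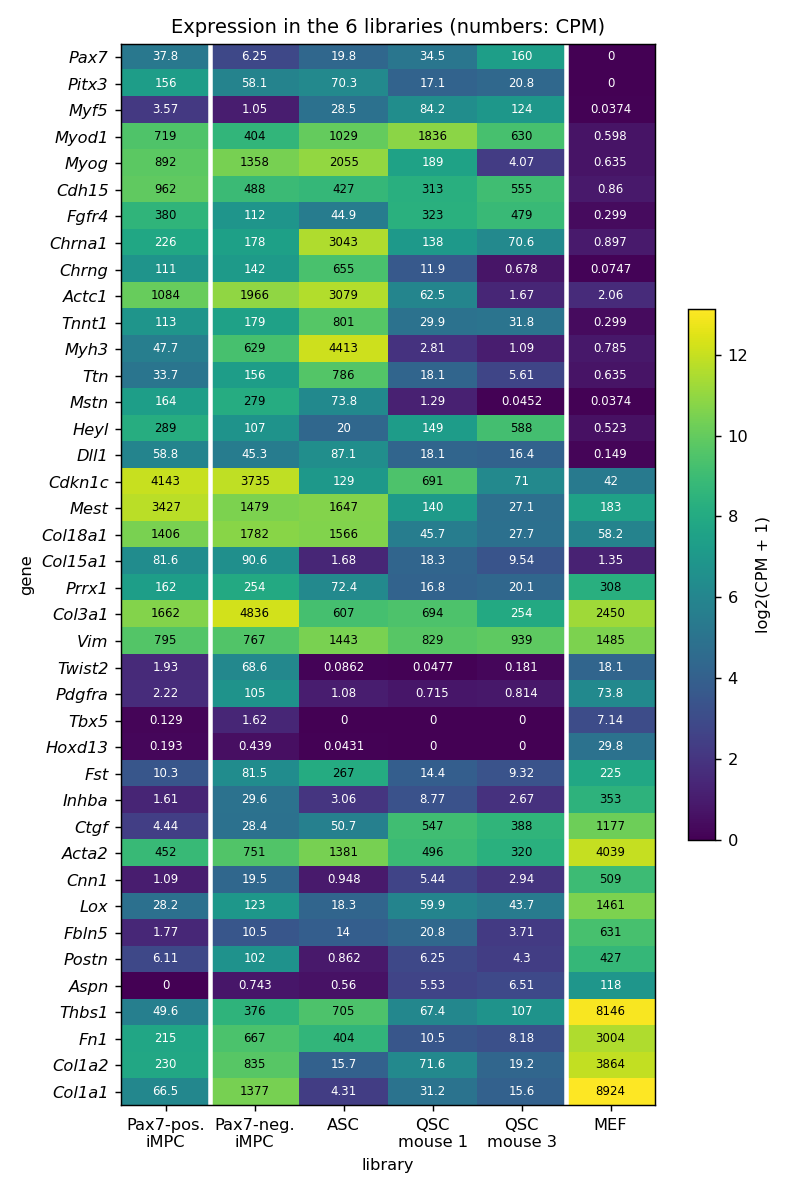
Levels of selected genes in Pax7-positive iMPC, Pax7-negative iMPC, ASC, QSC of mice 1 and 3, and MEF, coloured by log2(CPM + 1) with the CPM printed in each cell. The muscle genes in the upper rows are dark in MEF and higher in Pax7-positive iMPC, Myf5 only at 3.57 CPM. In the other columns they vary, Myog for example being at 2055 CPM in ASC and 4.07 CPM in QSC of mouse 3. Col1a1 reaches 8924 CPM in MEF and 66.5 CPM in Pax7-positive iMPC.

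The 8 gained genes with the highest CPM were Cdkn1c, Itm2a, Mest, Ccnd3, Des, Peg3, H19 and Col18a1. Cdkn1c (p57), an imprinted inhibitor of cyclin-dependent kinases, had 4143 CPM in Pax7-positive iMPC and 42 CPM in MEF, 98.7-fold higher (93.1 to 105). Per length, in the RPKM values the authors deposited, it ranked 3 of all genes in Pax7-positive iMPC and 3849 in MEF. Itm2a, a membrane protein found in developing muscle and cartilage, had 4103 CPM in Pax7-positive iMPC and 141 CPM in MEF. Cdkn1c was at 3735 CPM in Pax7-negative iMPC and 129 CPM in ASC, so its level was shared by both iMPC fractions.

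Imprinted and fetal growth genes were represented beyond Cdkn1c, with 7 of 25 higher and 1 lower (median 0.51, and 0.30 at the bound). Mest had 3427 CPM in Pax7-positive iMPC and 183 CPM in MEF. Plagl1, a zinc finger regulator of imprinted genes, had 811 CPM in Pax7-positive iMPC and 43.5 CPM in MEF. Peg3 had 1488 CPM in Pax7-positive iMPC and 231 CPM in MEF, and the noncoding H19 had 1430 CPM in Pax7-positive iMPC and 332 CPM in MEF. Hmga2, a chromatin protein of proliferating fetal cells, was the lower member, at 59.8 CPM in Pax7-positive iMPC and 356 CPM in MEF.

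Both libraries expressed the cell cycle machinery. Of 32 proliferation genes 2 were higher and 1 lower, with a median of 0.72. The list leaned towards iMPC, with a log2 difference above 0 for 29 genes and below 0 for 3. Mki67 was alike, at 94.7 CPM in Pax7-positive iMPC and 98.1 CPM in MEF. The members that passed the rule were cyclins. Ccne1 had 860 CPM in Pax7-positive iMPC and 66.9 CPM in MEF, 12.9-fold higher. Ccnd3, the D cyclin that is induced in differentiating myoblasts, had 2395 CPM in Pax7-positive iMPC and 349 CPM in MEF, whereas Ccnd2 was lower at 155 CPM in Pax7-positive iMPC and 838 CPM in MEF. Of 14 inhibitors 3 were higher and 0 lower (median 0.53), Cdkn1c with Cdkn2a and Gadd45a, and Cdkn1a (p21) had 501 CPM in Pax7-positive iMPC and 441 CPM in MEF.

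By CPM, which is not corrected for length, the lost gene with the highest level in MEF coded for type I collagen. Per length, in the deposited RPKM values, the lower genes Acta2 and Tpm1 ranked 6 and 9 in MEF and Col1a1 ranked 13. Col1a1, the chain of type I collagen that dominates fibroblast secretion, had 66.5 CPM in Pax7-positive iMPC and 8924 CPM in MEF, 134-fold lower (128 to 140). Its partner chain Col1a2 had 230 CPM in Pax7-positive iMPC and 3864 CPM in MEF, 16.8-fold lower. Col3a1, the chain of type III collagen, did not pass the rule, at 1662 CPM in Pax7-positive iMPC and 2450 CPM in MEF. The collagen and collagen-processing list had 17 of 31 genes lower and 3 higher (median -2.29) and took 0.958% of counts in Pax7-positive iMPC and 3.45% in MEF. The cross-linking enzyme Lox had 28.2 CPM in Pax7-positive iMPC and 1461 CPM in MEF, 51.8-fold lower. The 3 chains that were higher, Col18a1, Col15a1 and Col5a3, include the multiplexin collagens of basement membrane zones, with Col18a1 at 1406 CPM in Pax7-positive iMPC and 58.2 CPM in MEF and Col15a1 at 81.6 CPM in Pax7-positive iMPC and 1.35 CPM in MEF.

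Proteoglycans and other matrix genes had the lowest median of the matrix lists, -3.68, with 25 of 38 lower and 1 higher. Thbs1 (thrombospondin 1), an adhesive glycoprotein, had 49.6 CPM in Pax7-positive iMPC and 8146 CPM in MEF, 164-fold lower. Fibronectin (Fn1) had 215 CPM in Pax7-positive iMPC and 3004 CPM in MEF, and Fbln2 had 37.2 CPM in Pax7-positive iMPC and 2195 CPM in MEF. The matricellular gene Ctgf had 4.44 CPM in Pax7-positive iMPC and 1177 CPM in MEF, 265-fold lower. Decorin (Dcn) and Sparc stayed inside the limit, Sparc at 1443 CPM in Pax7-positive iMPC and 3237 CPM in MEF. Spon1, a secreted adhesion protein, was the single member that was higher, at 20.8 CPM in Pax7-positive iMPC and 0.897 CPM in MEF. Of 22 matrix proteases and inhibitors 6 were lower and 2 higher (median -1.39). The collagenase Mmp13 had no count in Pax7-positive iMPC and 24.2 CPM in MEF, at least 251-fold lower, while the gelatinase Mmp9 went the other way, at 167 CPM in Pax7-positive iMPC and 2.2 CPM in MEF.

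Transcription factors of fibroblasts and limb mesenchyme were lower in 17 of 36 cases and higher in 0, with a median of -2.05. Twist2, a bHLH factor that restrains myogenic factors, had 1.93 CPM in Pax7-positive iMPC and 18.1 CPM in MEF, 9.39-fold lower. Tbx5, the forelimb T-box factor, had 0.129 CPM in Pax7-positive iMPC and 7.14 CPM in MEF, and Pitx1, a hindlimb factor, had 0.29 CPM in Pax7-positive iMPC and 14.8 CPM in MEF, so transcripts of both were found in MEF. Other mesenchymal factors were retained within the limit. Prrx1 had 162 CPM in Pax7-positive iMPC and 308 CPM in MEF, and Snai2 had 54.1 CPM in Pax7-positive iMPC and 76.1 CPM in MEF. Surface genes followed, with 15 of 26 lower and 1 higher (median -2.70). The PDGF receptor Pdgfra had 2.22 CPM in Pax7-positive iMPC and 73.8 CPM in MEF, 33.2-fold lower, but Pdgfrb (103 CPM in Pax7-positive iMPC and 173 CPM in MEF), Thy1 (10.1 CPM in Pax7-positive iMPC and 33.9 CPM in MEF) and vimentin (Vim, 795 CPM in Pax7-positive iMPC and 1485 CPM in MEF) did not pass. Fap, a fibroblast protease, was the exception in direction, at 34 CPM in Pax7-positive iMPC and 2.54 CPM in MEF.

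Levels of the lost fibroblast genes can also be set beside the Pax7-negative fraction. Pdgfra had 2.22 CPM in Pax7-positive iMPC and 105 CPM in Pax7-negative iMPC, against 73.8 CPM in MEF. Twist2 had 1.93 CPM in Pax7-positive iMPC and 68.6 CPM in Pax7-negative iMPC, against 18.1 CPM in MEF. Col1a1 had 66.5 CPM in Pax7-positive iMPC and 1377 CPM in Pax7-negative iMPC, against 8924 CPM in MEF. Over all 971 lower genes the median level was 2.45 CPM in Pax7-positive iMPC, 9.79 CPM in Pax7-negative iMPC, 7.5 CPM in ASC, 7.39 and 6.29 CPM in the QSC mice and 27.6 CPM in MEF. Over the 554 higher genes it was 29.6 CPM in Pax7-positive iMPC, 32.1 CPM in Pax7-negative iMPC, 19.3 CPM in ASC, 8.42 and 6.65 CPM in the QSC mice and 1.7 CPM in MEF. At 5 CPM or more stood 90.6% of the higher genes in Pax7-negative iMPC, 67.5% in ASC and 57.4% and 54.2% in the QSC mice. For the lower genes these shares were 66.1%, 56.6%, 56.8% and 53.5%, and for all genes kept 63.3%, 61.5%, 58.2% and 58.4%. Called genes had to reach 5 CPM in 1 library of the pair and the genes kept did not, so the shares are not a like comparison.

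The contractile program of smooth muscle and myofibroblasts was lower, with 11 of 16 genes lower and 1 higher (median -3.33). Smooth muscle actin (Acta2) had 452 CPM in Pax7-positive iMPC and 4039 CPM in MEF, 8.93-fold lower. Transgelin (Tagln), an actin cross-linker, had 19 CPM in Pax7-positive iMPC and 889 CPM in MEF. The regulatory light chain gene Myl9, whose promoter is printed above, had 52.1 CPM in Pax7-positive iMPC and 592 CPM in MEF, 11.4-fold lower. Smooth muscle actin was therefore lower while cardiac alpha-actin was higher, in the same pair of libraries. The pericyte marker Rgs5 was alike at 14.6 CPM in Pax7-positive iMPC and 15 CPM in MEF, and Synpo2, at 28.6 CPM in Pax7-positive iMPC and 7.06 CPM in MEF, was higher.

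Genes that respond to TGF-beta were lower in 16 of 25 cases and higher in 0 (median -3.27), and took 0.256% of counts in Pax7-positive iMPC and 3.25% in MEF. The list shares Acta2, Tagln, Cnn1, Thbs1, Ctgf, Lox and Col1a1 with the lists above, so its count is not separate evidence for them. Among members not in those lists, Pmepa1, a feedback inhibitor, had 6.47 CPM in Pax7-positive iMPC and 226 CPM in MEF, 34.9-fold lower. Smad7, another feedback inhibitor, had 7.43 CPM in Pax7-positive iMPC and 72.6 CPM in MEF. Ltbp1, which stores the latent ligand in matrix, had 9.72 CPM in Pax7-positive iMPC and 623 CPM in MEF. Id1, Id2 and Id3, which are targets of the BMP branch, did not pass, Id3 being at 672 CPM in Pax7-positive iMPC and 372 CPM in MEF. RepSox was in the iMPC medium per the labels, and its part in these differences was not tested.

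The other culture agents have their own response genes. For GSK3 inhibition, 3 of 20 genes of the Wnt-response list were higher and 6 lower (median -2.18). That list holds secreted antagonists as well as targets, so its median is no measure of pathway activity. Bmp4 had the largest difference among its called members, at 0.354 CPM in Pax7-positive iMPC and 44.5 CPM in MEF. Lgr5, a Wnt target and R-spondin receptor, had 61 CPM in Pax7-positive iMPC and 4.48 CPM in MEF, 13.6-fold higher, and the factors Tcf7 and Lef1 were 4.51-fold and 4.13-fold higher in Pax7-positive iMPC. The feedback target Axin2 was low in both, at 0.418 CPM in Pax7-positive iMPC and 3.03 CPM in MEF, and the secreted antagonists Dkk2, Dkk3, Sfrp1 and Sfrp2 were lower. For cAMP, 3 of 16 genes were higher and 1 lower (median 0.30). Sik1, a CREB-induced kinase, had 103 CPM in Pax7-positive iMPC and 15.1 CPM in MEF, and the phosphodiesterase Pde4b had 112 CPM in Pax7-positive iMPC and 19.7 CPM in MEF. Nr4a2 was the lower member, at 3.22 CPM in Pax7-positive iMPC and 19.7 CPM in MEF. Across the cAMP list the log2 difference was above 0 for 9 genes and below 0 for 7. The part of these agents in the differences was not tested.

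The Hox genes, which record position along the body and limb axes, split largely by paralog group. Of 34 measured genes 11 were lower and 0 higher (median -1.53). Hoxd13, the gene of the distal limb, had 0.193 CPM in Pax7-positive iMPC and 29.8 CPM in MEF, 154-fold lower. Hoxd11 had no count in Pax7-positive iMPC and 16.4 CPM in MEF, at least 170-fold lower, and Hoxa10 had 2.09 CPM in Pax7-positive iMPC and 50.6 CPM in MEF. Genes near the head end of the clusters mostly differed less, for example Hoxb2 at 11.9 CPM in Pax7-positive iMPC and 12.3 CPM in MEF. Hoxa7 and Hoxc6 were exceptions and were lower, Hoxa7 at 1.42 CPM in Pax7-positive iMPC and 10.9 CPM in MEF. Hoxb9 was an exception at the other end, at 10.9 CPM in Pax7-positive iMPC and 14.9 CPM in MEF. The split into groups was made after these values were seen, and so is a description: groups 9 to 13 had 9 of 14 genes lower (median -4.14) and summed to 18 CPM in Pax7-positive iMPC and 192 CPM in MEF, while groups 1 to 8 had 2 of 20 lower (median -0.31) and summed to 69.4 CPM in Pax7-positive iMPC and 110 CPM in MEF.

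**Figure D4:**
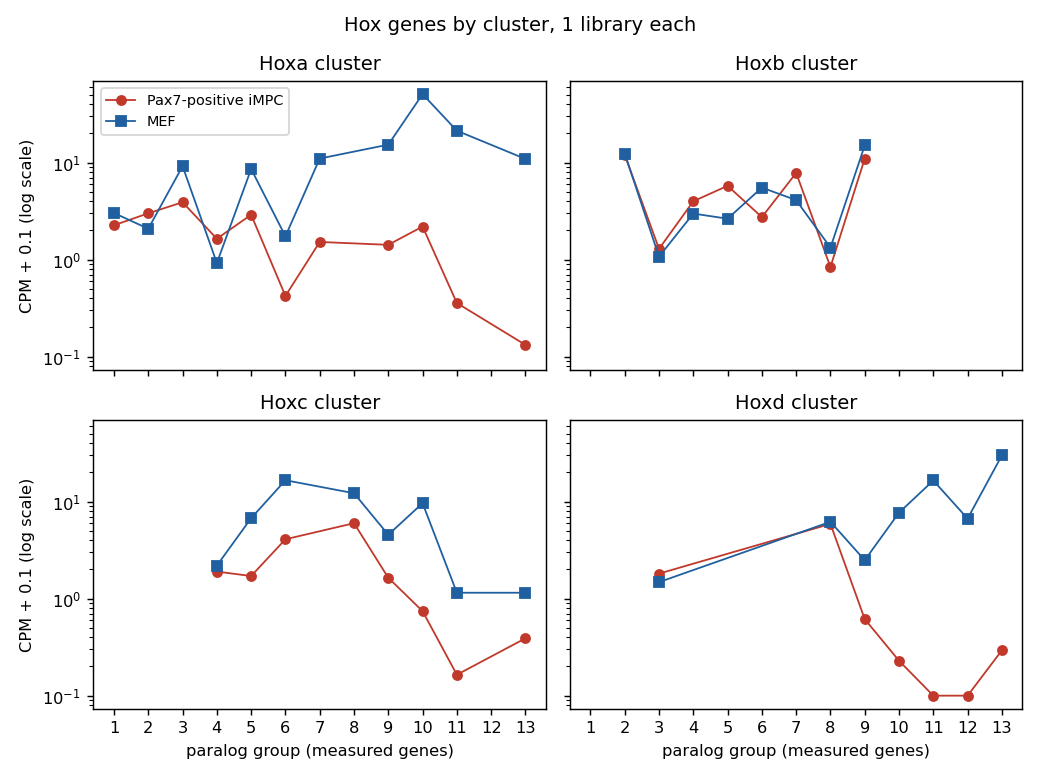
Levels of the 34 measured Hox genes by cluster and paralog group (horizontal axis) in Pax7-positive iMPC and MEF on a log scale of CPM, 1 library each. The libraries lie close together for most genes of groups 1 to 8, though not for Hoxa7. They part for most of groups 9 to 13, where Hoxd13 is at 0.193 CPM in Pax7-positive iMPC and 29.8 CPM in MEF. Hoxb9 does not part, at 10.9 CPM in Pax7-positive iMPC and 14.9 CPM in MEF.

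Some markers of other cell types were also lower. Of 11 cartilage and bone markers 7 were lower and 0 higher, summing to 381 CPM in Pax7-positive iMPC and 1941 CPM in MEF. Most of both sums was Spp1, at 287 CPM in Pax7-positive iMPC and 1500 CPM in MEF. Spp1 was also at 2519 CPM in Pax7-negative iMPC and 8765 CPM in ASC. Col2a1 was at 1.64 CPM in Pax7-positive iMPC and 277 CPM in MEF. The cartilage factor Sox9 was alike at 83.8 CPM in Pax7-positive iMPC and 86.6 CPM in MEF. Of 4 epithelial markers 2 were lower, led by Krt19 at 0.579 CPM in Pax7-positive iMPC and 84.5 CPM in MEF. The 11 endothelial markers summed to 15.3 CPM in Pax7-positive iMPC and 69 CPM in MEF, 2 of them lower: Kdr and Flt1, at 0 and 1.64 CPM in Pax7-positive iMPC against 15.1 and 42.2 CPM in MEF, with the defining Cdh5 at 0.0643 CPM in Pax7-positive iMPC and 0 in MEF. The 10 immune markers summed to 1.99 CPM in Pax7-positive iMPC and 12.8 CPM in MEF, with 1 lower, the macrophage gene Lyz2 at 0 CPM in Pax7-positive iMPC and 8.97 CPM in MEF, while Ptprc, which all leukocytes express, was at 0.0322 CPM in Pax7-positive iMPC and 0.0374 CPM in MEF. The part that other cell types have in the differences above was not tested.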

How the data were processed

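Poly(A)-selected RNA of 6 mouse libraries was sequenced from a strand-marking kit. For every library the authors deposited unnormalized counts of reads for 38924 Ensembl genes, together with a table of RPKM values that pairs identifiers with symbols. The build was mm9 and the tools HTSeq 0.6.0, STAR 2.3.0, edgeR and Picard 1.100, per the submitters' processing notes; whether counting used the strand is not given in the sources used here, so antisense, overlapping and near-identical genes are uncertain.

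Counts were filtered by group with edgeR 4.0.16 in R 4.3.3, which kept 17116 genes, and scaled by TMM over all 6 libraries. Log2 differences used a prior count of 2, so they understate the change of low genes, and the 4-fold limit was applied to them. Ratios are of CPM, with exact binomial 95% intervals from Python 3.11.15 and scipy 1.17.1. A library at 0 was set at 3 counts for a bound. The rule of size was checked on simulated counts that held counting error only, so that check says nothing about variation between cultures. No test between the groups was made, since each group had 1 library, and nothing shows how far other cultures would vary. Of 693 entries in 35 gene lists, 646 had at least 1 CPM in at least 1 library and are called measured. Members, lists and rules were chosen with earlier results of these data known. Genes named are all myogenic factors and a few fixed identity genes, the 12 largest differences each way, up to 5 largest and 2 most abundant members of a list, the 8 most abundant called genes each way and those beside the limit; other list members named were picked as examples after their values were seen. Alternatives in scaling, filter, prior count, limits and unit were tried, and each QSC mouse was left out of the scaling. A few genes that these rules name are not reported here.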

Additional observations from a re-analysis of the deposited data

How the results depend on the processing

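The number of genes higher and lower was 554 and 971 as reported, and stayed within 1.5 times of that under library size scaling (598 and 988), DESeq2 size factors (560 and 953), TMM on the pair alone (584 and 1026), prior counts of 0.5 (558 and 977) and 5 (544 and 948), deposited RPKM (551 and 906), no expression filter (558 and 971) and a minimum of 10 CPM (443 and 781). Leaving each QSC mouse out of the scaling gave 562 to 565 higher and 999 lower genes. A minimum of 1 CPM gave 834 higher and 1448 lower genes, a 2-fold limit 1450 and 2026, and an 8-fold limit 351 and 534, so these counts describe the limits chosen. Between 1451 and 1525 of the 1525 calls were shared with each alternative of scaling, prior count and unit. No list median and no named gene past the rule was found to change sign under them. The sign check left out named genes short of the rule and list medians that rounded to 0.00. Of the list medians over these alternatives, 11 moved by more than 1.5-fold and 269 did not; of the named genes' differences, 95 left their counting interval and 1401 did not. No paired analysis was possible because each group compared had 1 library. Genes under 5 CPM in both libraries, such as Myf5, Mb and Ckm, could not pass the rule whatever their ratio.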

Other observations

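Of 21 complement, chemokine and interleukin genes 9 were lower and 1 higher (median log2 difference -2.20). The chemokine gene Cxcl12, which guides migrating progenitors, had 11.9 CPM in Pax7-positive iMPC and 509 CPM in MEF, while its receptor gene Cxcr4 had 9.75 CPM in Pax7-positive iMPC and 0.224 CPM in MEF. Ptgs2, the inducible prostaglandin synthase, had 11 CPM in Pax7-positive iMPC and 505 CPM in MEF. The alarmin Il33 was the member that was higher, at 33.5 CPM in Pax7-positive iMPC and 6.2 CPM in MEF.

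Collagen chains as a whole, grouped after their values were seen, held 8 higher and 21 lower genes of 42. Beside Col18a1, Col15a1 and Col5a3, the higher chains were Col26a1, Col17a1, Col19a1, Col6a6 and Col13a1, the last a transmembrane collagen of the nerve-muscle synapse. The 82 ribosomal protein genes had 2 higher and 0 lower, with a median log2 difference of 0.34.

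Small marker lists gave few calls. Of 5 adipocyte markers 1 was higher and 2 lower (median -2.40), the higher one being lipoprotein lipase (Lpl) at 418 CPM in Pax7-positive iMPC and 11.5 CPM in MEF, which working muscle also makes. Of 7 Schwann and neural crest markers 1 was higher (Erbb3, 26.4 CPM in Pax7-positive iMPC and 0.673 CPM in MEF), and of 9 neuronal markers 1 was higher (Stmn2, 53.2 CPM in Pax7-positive iMPC and 8.33 CPM in MEF). Of 4 pluripotency genes 1 was lower, Klf4 at 5.24 CPM in Pax7-positive iMPC and 28.1 CPM in MEF, and Sox2 had 0.0322 CPM in Pax7-positive iMPC and 0.673 CPM in MEF. No erythroid marker of 5 passed in either direction.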
